A study of Mus musculus with 8 samples.

Results

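Open chromatin at 5 DNA topoisomerase genes, Top1, Top2a, Top2b, Top3a and Top3b, was examined in cerebellar granule neuron progenitors (GNPs), the cells that give rise to the granule neurons of the cerebellum. Every ATAC-seq peak touching the body of these genes or the 10 kb on either side was taken, with gene positions from GENCODE M21 on mm10. This gave 14 of 152984 peaks in the wild-type (WT) list, 15 of 106974 in the heterozygous (het) list and 16 of 174407 in the mutant list. Peaks from any list were joined where gaps were below 300 bp, which gave 13 regions at the topoisomerase genes out of 190582 in all.

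In ATAC-seq the Tn5 transposase cuts and tags accessible DNA, so that sequenced tags pile up where chromatin is open. GNPs were isolated from mouse cerebella at postnatal day 7 and differed in Chd7, which encodes an ATP-dependent chromatin remodeller. Per the labels, 3 libraries were Chd7 wild type, 3 mutant and 2 het, all untreated, with the strain given as C56Bl6/J (C57BL/6N in the study's methods). In the study WT mice were Chd7 f/f without Cre, mutants Atoh1-Cre::Chd7 f/f and hets Atoh1-Cre::Chd7 f/+, so WT and mutant cells both started from floxed alleles and the WT carried no Cre. Atoh1-Cre acts in the rhombic lip lineage, which includes the granule cells, and any cell from outside that lineage in the preparation would keep its alleles intact. The study also saw some Chd7 protein left in the posterior lobe of mutant cerebella. It ascribes this, as probable, to weaker recombination by the Cre line.

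Topoisomerases relax and disentangle DNA by cutting it, passing DNA through or around the break and sealing it again. Top1 removes the supercoils that build up around a moving RNA polymerase. Top2a and Top2b pass a duplex through a break in both strands, Top2a chiefly in dividing cells, where it separates replicated chromosomes, and Top2b also in postmitotic neurons, where it is known for its part in the transcription of long genes. Top3a acts with the Bloom helicase to dissolve joined DNA molecules in the nucleus and also serves mitochondria, and Top3b acts on DNA as well as RNA together with Tdrd3. The study found TOP1, TOP2A and TOP2B among the proteins bound by CHD7 and examined Top2b further as its partner. In cultured granule neurons it reports unaltered Top2b transcript and protein after loss of Chd7. The comparison here addresses how accessible the genes for these enzymes themselves were in WT, het and mutant cells.

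The authors pooled the libraries of a genotype before peak calling, so there is 1 value per genotype, no replicate error and no test between genotypes. Intervals below are 95% intervals that cover counting error alone. The filtered tags numbered 50394313 (WT), 30923002 (het) and 51030229 (mutant). The het list came from another aligner, with reads extended to 200 bp in place of 90 bp for WT and 88 bp for mutant, so het pileups are given as deposited and het is compared by presence, with its other values given within its own list. Tag size was 107 bp in WT and het and 76 bp in mutant, so genotype and processing cannot be told apart. All 6 of the GNP markers looked up (Atoh1, Barhl1, Pax6, Zic1, Neurod1 and Mki67) had a promoter region in every list. So did Calb1, Gad2, Gfap, Slc1a3, Mbp and Cldn5 from lists for other cell types, while Pcp2, Gad1, Aqp4, Mog, Csf1r, Cx3cr1 and Pecam1 had none in any list and Pax2 had one in WT and mutant. Over all 21897 protein-coding genes, 61.8% had such a region in every list. An open promoter does not by itself identify a cell type, and the part of other cells in the values below was not tested.

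The sequence upstream of the start sites is shown first, because the highest WT summit pileup in each of the 5 windows lay near the gene start. RefSeq (GRCm38.p6) gave a promoter for 4 of the 5 genes, and Top3a was not among them. For each, the 250 bases before the RefSeq start were searched on both strands for 11 motifs: the NF-Y box CCAAT, the GC box core GGGCGG, the TATA box TATAAA, the cell cycle homology forms TTTGAA and also TTCGAA, the E-boxes CAGCTG and also CATCTG, the cAMP response element core TGACGT, the NRF1 core GCGCATG, and the E2F forms TTTCCCG and also TTTGGCG. Capitals mark every match, read 5′ to 3′ along the gene. The last 9 bases of the Top1 window and the last 27 of the Top2b window lie past the GENCODE start and are not printed. The windows are chr2:160645647-160645887 (plus strand) for Top1, chr11:99024190-99024439 (minus strand) for Top2a, chr14:16364956-16365178 (plus strand) for Top2b and chr16:16870486-16870735 (plus strand) for Top3b.
Top1 promoter: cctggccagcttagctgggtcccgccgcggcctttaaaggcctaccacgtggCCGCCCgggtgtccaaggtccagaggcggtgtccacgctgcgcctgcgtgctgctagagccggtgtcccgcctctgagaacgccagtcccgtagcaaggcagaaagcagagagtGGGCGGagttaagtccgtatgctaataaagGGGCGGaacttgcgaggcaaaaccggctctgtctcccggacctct
Top2a promoter: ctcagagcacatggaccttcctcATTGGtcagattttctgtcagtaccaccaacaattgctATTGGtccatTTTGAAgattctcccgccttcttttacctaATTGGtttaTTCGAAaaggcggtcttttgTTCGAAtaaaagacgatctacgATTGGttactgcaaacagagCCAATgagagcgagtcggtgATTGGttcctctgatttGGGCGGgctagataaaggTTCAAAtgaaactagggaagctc
Top2b promoter: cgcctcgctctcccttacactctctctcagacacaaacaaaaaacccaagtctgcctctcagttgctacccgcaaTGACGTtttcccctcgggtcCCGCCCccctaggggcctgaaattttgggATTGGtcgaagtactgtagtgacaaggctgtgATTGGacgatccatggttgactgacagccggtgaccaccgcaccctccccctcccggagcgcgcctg
Top3b promoter: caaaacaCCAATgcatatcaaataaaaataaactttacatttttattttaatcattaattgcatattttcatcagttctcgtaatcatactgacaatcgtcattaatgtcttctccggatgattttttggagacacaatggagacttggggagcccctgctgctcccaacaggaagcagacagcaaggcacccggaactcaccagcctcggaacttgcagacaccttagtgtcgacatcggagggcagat

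The Top2a promoter held repeated CCAAT boxes, the element bound by the factor NF-Y. There were 6 of them, 1 as CCAAT and the others as the reverse complement ATTGG. Of 32851 RefSeq promoter windows of the same length, 33.8% held at least 1 CCAAT and 19 windows (0.0578%) held 6 or more. The same Top2a window held TTTGAA 2 times and TTCGAA 2 times, the letters of the cell cycle homology region known from promoters of G2/M genes. A promoter window held TTTGAA in 16.0% of cases and TTCGAA in 1.34%, and 6 windows (0.0183%) held TTCGAA 2 or more times. The Top2b promoter held CCAAT 2 times, a number reached by 10.1% of windows, with 1 GGGCGG, the core of an Sp1 GC box, and 1 TGACGT, part of a cAMP response element (6.47% of windows). Top1 had no CCAAT but 3 GGGCGG, a number that 8.47% of windows reached, and GGGCGG was present in 32.7% of windows at all. Top3b had 1 CCAAT and no other match. These are matches of letters in a window, not measured binding sites.

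Base composition differed among the genes as well. GC content was 63.6% for Top1, 57.6% for Top2b, 43.6% for Top2a and 42.0% for Top3b, against a median of 52.4% over all windows. The observed over expected ratio of CpG was 0.791 for Top1, 0.759 for Top2a, 0.744 for Top2b and 0.645 for Top3b, all above the median of 0.374. The summits of all 3 lists fell inside the 250-base window for Top1, Top2a and Top2b. For Top3b the WT and het summits did, and the mutant summit lay 30 bp past the gene start.

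All 5 genes had an open promoter in each genotype. A promoter region, meaning a joined region within 1 kb of the gene start, was present in all 3 lists for 61.8% of 21897 protein-coding genes. The height of a peak is given as the deposited pileup at its summit, the number of extended tags covering that base, and as scaled height, the pileup per 1000000 filtered tags, neither of which depends on gene length.

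Top2b (ENSMUSG00000017485.11, chromosome 14, 16365179 to 16435462, plus strand, 70.3 kb, 36 exons) had the highest of the 5 promoters. Its main peak reached 100 tags in WT, 164 in het and 106 in mutant, with summits 79, 71 and 72 bp before the gene start. The scaled height was 1.98 in WT (interval 1.61 to 2.41) and 2.08 in mutant (1.70 to 2.51). WT and mutant were thus nearly level, with a log2 ratio of mutant over WT of 0.07 (-0.34 to 0.47). This promoter was higher than or level with 97.8% of protein-coding promoters in WT, 98.4% in mutant and 96.7% in het. It was also wide, with a WT peak of 1615 bp, a het peak of 1773 bp and a mutant peak of 1726 bp, where the medians over promoters were 810, 908 and 789 bp.

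By fold enrichment the same promoter stood near the middle of all promoters. Fold enrichment, the ratio of summit pileup to local background as given by the peak caller, was 8.84 in WT, 9.38 in het and 8.38 in mutant for Top2b, the lowest of the 5 genes in every list. It stood at the 48.3 percentile of promoters in WT, 40.7 in mutant and 53.0 in het. The local background implied by pileup and fold enrichment in WT was 10.4 tags at the Top2b start, against 5.80 at Top1, 4.35 at Top3b, 3.74 at Top3a and 3.51 at Top2a. The start of Top2b lies within the antisense gene Gm48163. A smaller peak 891 bp upstream in WT, inside the joined promoter region, had 39 tags in WT, 50 in het and 51 in mutant, with a log2 ratio of mutant over WT of 0.37 (-0.26 to 1.01). The implied background at this smaller peak in WT was 10.5 tags, close to the 10.4 at the main peak. How far the tags of the tall, wide main peak enter this background was not tested.

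Top2a (ENSMUSG00000020914.17, chromosome 11, 98992943 to 99024189, minus strand, 31.2 kb, 36 exons) had a lower and narrower promoter peak. It held 1 peak in each list, with 58 tags in both WT and mutant and 67 tags in het. The scaled height was 1.15 in WT (0.874 to 1.49) and 1.14 in mutant (0.863 to 1.47), and the log2 ratio was -0.02 (-0.57 to 0.53). Its height was near the middle of all promoters, at the 59.6 percentile in WT, 45.4 in het and 56.1 in mutant. Its fold enrichment was 13.1, 12.1 and 14.2, the 89.2, 79.7 and 92.0 percentiles, and its peak was narrow at 679 bp in WT, 731 bp in het and 564 bp in mutant. The summits lay 197, 166 and 194 bp before the start, among the CCAAT repeats, of which the farthest begins 227 bases before the start and the nearest 58. In the printed windows of Top1 and Top2b the summits lay closer to the start.

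Top1 (ENSMUSG00000070544.6, chromosome 2, 160645888 to 160722764, plus strand, 76.9 kb, 21 exons) came after Top2b in height. Its promoter reached 81 tags in WT, 127 in het and 92 in mutant, a scaled height of 1.61 in WT (1.28 to 2.0) and of 1.80 in mutant (1.45 to 2.21). The log2 ratio was 0.17 (-0.28 to 0.61), and fold enrichment was 12.1 in WT, 13.2 in mutant and 12.5 in het. The WT peak was a single stretch of 1475 bp. The mutant list cut the same stretch into a main peak of 1252 bp and a separate peak of 123 bp (21 tags, -log10 q of 4.36). The summit of the latter lies in an annotated Top1 exon, and in intron 2 of the transcript with 21 exons. The additional mutant peak thus covered DNA that the WT peak covered too.

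The Top3 genes had the third and the lowest of the 5 promoters. Top3b (ENSMUSG00000022779.16, chromosome 16, 16870736 to 16892990, plus strand, 22.3 kb, 19 exons) had 71 tags in WT, 90 in het and 78 in mutant, with a log2 ratio of 0.12 (-0.36 to 0.60) and fold enrichments of 13.5, 12.7 and 13.8. Its start overlaps an exon of Vpreb1, which encodes part of the surrogate light chain of B cell precursors, so the peak belongs to both annotations. Top3a (ENSMUSG00000002814.15, chromosome 11, 60740058 to 60777365, minus strand, 37.3 kb, 19 exons) had 49 tags in WT, 61 in het and 48 in mutant, with a log2 ratio of -0.05 (-0.65 to 0.56) and fold enrichments of 10.5, 10.6 and 10.8. The start of Smcr8, transcribed in the other direction, lies under the same peak, which cannot be divided between them.

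In scaled height the order in WT and in mutant was Top2b, Top1, Top3b, Top2a and Top3a. Neighbours in this order had overlapping counting intervals throughout. The interval of Top2b in WT did not reach those of Top2a and Top3a (0.719 to 1.29), and the same held in mutant, where Top3a spanned 0.694 to 1.25. By fold enrichment the order differed, with Top3b, Top2a and Top1 above Top3a and Top2b in each list.

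**Figure D1:**
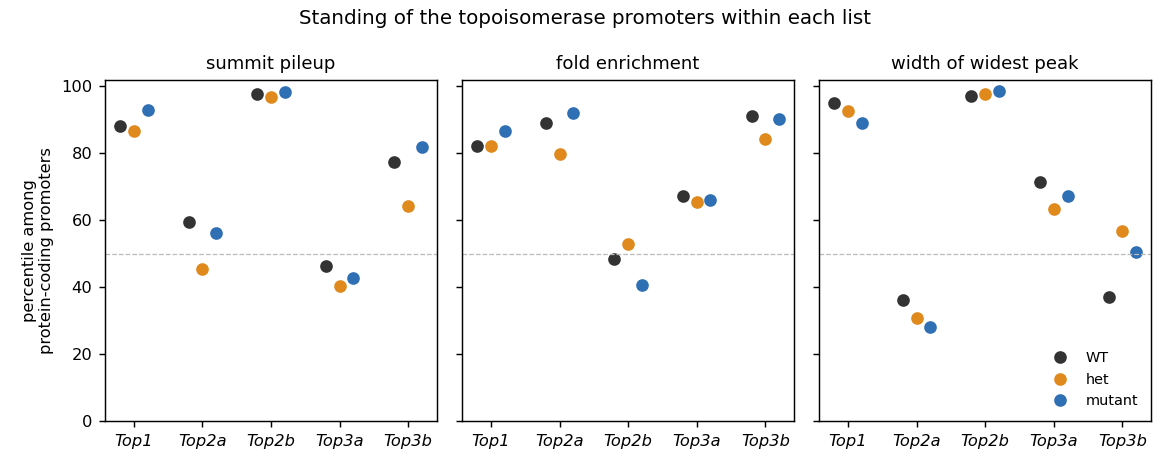
Percentile of each topoisomerase promoter among all protein-coding promoters of the same list, from 0 to 100, for summit pileup, fold enrichment and the width of the widest peak, with 1 point per list and a dashed line at 50. Top2b is near the top for pileup (97.8 in WT) and width (97.1) but near the middle for fold enrichment (48.3), and Top2a is high for fold enrichment (89.2) and low for width (36.2).

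The protein-coding genes whose promoters were most like Top2b, by Euclidean distance in log2 scaled height over the 3 lists among 13535 genes, were Dctn4 (distance 0.0218), Rnf2 (0.0228) and Cep44 (0.0328). Those most like Top2a were 4921504E06Rik, with the same pileups in each list, Kifc5b (0.0326) and Vps39 (0.0330). The distance rests on 1 height per list and describes these heights alone.

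Beyond the promoters the genes differed in how many peaks their windows held. Top2b had 6 WT peaks, 7 het peaks and 7 mutant peaks, and Top1 had 4, 4 and 5. Top2a and Top3a had 1 in each list and Top3b had 2. Protein-coding genes within 1.25-fold of the same length had a WT median of 6 peaks for Top2b and for Top1, 3 for Top2a, 4 for Top3a and 3 for Top3b. Top2a, with no peak but the one at its start, was at or above 18.7% of the genes near its length in WT, 16.5% in mutant and 26.2% in het, and Top3a was at or above 15.2%, 13.3% and 22.2%.

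**Figure D2:**
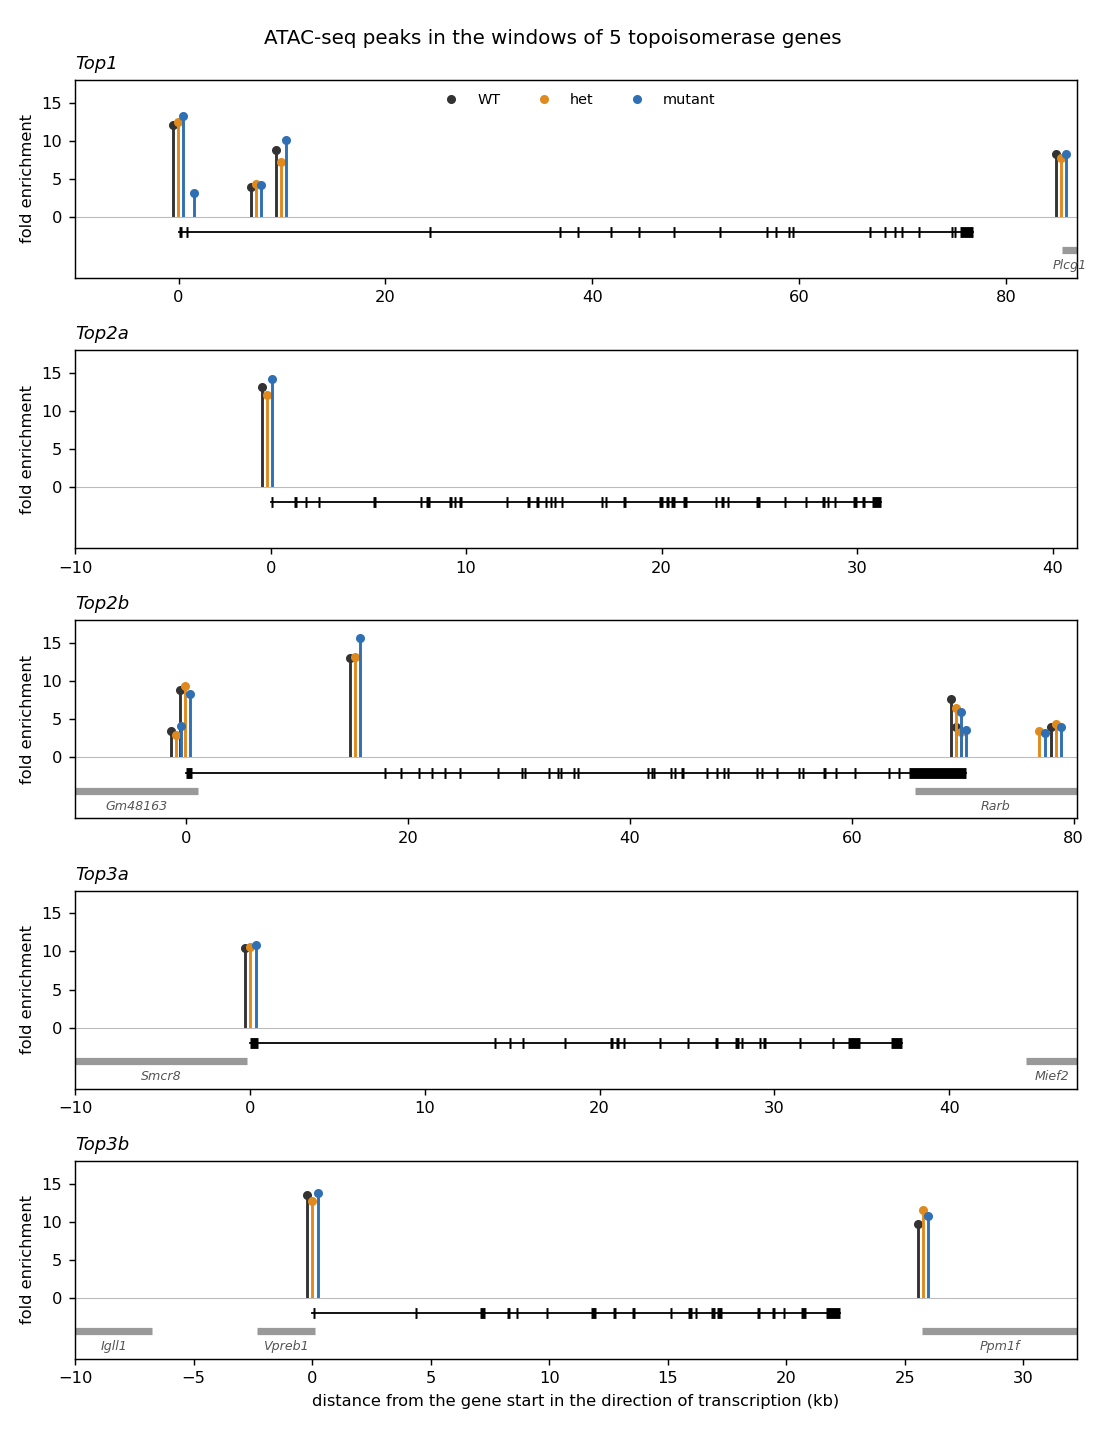
Fold enrichment of each peak (vertical axis, no unit) by distance of its summit from the gene start (kb, horizontal axis) in the windows of the 5 genes, with WT, het and mutant drawn side by side and shifted slightly so that they can be told apart. Black bars below are the exons of the gene and grey bars the neighbouring genes. Top2a and Top3a have 1 position each, at the start, and the tallest mark in the Top2b window is in intron 1 (13.1 in WT and 15.7 in mutant).

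The windows at peaks away from gene starts are shown for the intron 1 peak of Top2b, the strongest of them, for the stronger of the intron 2 peaks of Top1, and for the 1 region with no WT peak. Each is 201 bases centred on the summit, the first and second on the WT summit and the last on the mutant summit, on the plus strand of GRCm38.p6, with matches to the same 11 motifs in capitals. They lie at chr14:16380296-16380496, chr2:160655681-160655881 and chr14:16442066-16442266.
Top2b intron 1: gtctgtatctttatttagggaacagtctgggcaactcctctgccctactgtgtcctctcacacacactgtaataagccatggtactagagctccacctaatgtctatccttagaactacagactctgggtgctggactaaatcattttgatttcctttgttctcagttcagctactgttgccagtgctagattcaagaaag
Top1 intron 2: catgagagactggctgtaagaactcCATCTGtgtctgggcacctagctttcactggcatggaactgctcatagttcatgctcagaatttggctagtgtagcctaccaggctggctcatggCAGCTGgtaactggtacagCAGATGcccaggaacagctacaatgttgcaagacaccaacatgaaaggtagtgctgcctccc
Rarb intron beyond Top2b: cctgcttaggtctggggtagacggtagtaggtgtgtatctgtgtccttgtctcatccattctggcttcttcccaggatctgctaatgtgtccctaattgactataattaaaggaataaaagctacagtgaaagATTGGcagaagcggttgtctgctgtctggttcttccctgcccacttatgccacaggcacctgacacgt

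The Top2b window held no match to any of the 11 motifs and had a GC content of 43.8%, lower than most of 152974 WT summit windows (11.1 percentile, median 51.7%). The Top1 window held CATCTG 2 times and CAGCTG 1 time. Both are forms of the E-box read by proneural factors such as Atoh1 and Neurod1. A CATCTG was present in 28.6% of all WT summit windows and a CAGCTG in 23.6%, so either is common. The third window held 1 CCAAT, as did 27.0% of WT summit windows.

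The intron 1 peak of Top2b lay 15.2 kb past the start and was among the most enriched peaks away from promoters. It reached 45 tags in WT, 64 in het and 56 in mutant, with fold enrichments of 13.1, 13.2 and 15.7. Among peaks over 1 kb from a gene start its fold enrichment was at the 98.2 percentile in WT (132436 peaks), 97.9 in het (89984 peaks) and 99.6 in mutant (151952 peaks). The summits in WT and mutant were 1 bp apart. Its log2 ratio of 0.30 (-0.29 to 0.90) was the highest of the topoisomerase regions, and the interval includes 0. Its rank within the list, the percentage of peaks at or below its -log10 q, was 93.2 in WT, 90.9 in het and 97.1 in mutant.

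At the other end of Top2b the mutant pileup was the lower. The region in untranslated sequence of the last exon, which also lies in an intron of the retinoic acid receptor gene Rarb, had 29 tags in WT, 22 in mutant and 32 in het. The log2 ratio was -0.42 (-1.29 to 0.43), at the 7.86 percentile of all regions held by both lists. Its rank was 77.7 in the WT list and 65.6 in the mutant list. The interval includes 0 here as well, so WT and mutant were not separated at this depth. A smaller peak in the same exon had 15, 16 and 13 tags.

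Past the end of Top2b, still within 10 kb, lay 2 regions in introns of Rarb. The nearer had no WT peak, 19 tags in het and 12 in mutant, with -log10 q of 4.89 and 2.76, and the mutant peak ranked at 8.88 in its list. The farther had 19, 27 and 17 tags and a log2 ratio of -0.18 (-1.21 to 0.84). Both were weak, and both lie inside Rarb rather than Top2b.

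Beyond its promoter region, Top1 had 2 peaks in intron 2 in each list. The first, 7.48 kb past the start, was faint, with 11 WT tags, 16 het tags and 10 mutant tags and a log2 ratio of -0.16 (-1.55 to 1.22). The one 9.89 kb past the start had 25, 27 and 26 tags, fold enrichments of 8.78, 7.25 and 10.1 and a log2 ratio of 0.04 (-0.81 to 0.89). The remaining region of the Top1 window was the promoter of Plcg1, which encodes phospholipase C gamma, with 65, 91 and 67 tags and a log2 ratio of 0.03. Likewise the second region of the Top3b window was the promoter of the phosphatase gene Ppm1f, with 51, 91 and 58 tags and a log2 ratio of 0.17 (-0.40 to 0.74). These 2 regions are in the windows by position and say nothing of Top1 or Top3b themselves.

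Nearly every region was found in each genotype. All 3 lists held 12 of the 13 regions, against 45.7% of all joined regions. The exception was the faint Rarb intron region, held by het and mutant, a pattern shown by 3.03% of all regions. Counted by peaks that overlapped by at least 1 bp, 0 of 14 WT peaks lacked a mutant peak (interval 0 to 21.5%), where 22.8% of all WT peaks did, and 0 of 14 lacked a het peak, where 36.9% did. Of 15 het peaks, 1 lacked a WT peak (6.67%, 1.19 to 29.8%; 13.3% of all het peaks) and 0 lacked a mutant peak (up to 20.4%; 10.7% of all). Of 16 mutant peaks, 1 lacked a WT peak (6.25%, 1.11 to 28.3%; 30.7% of all mutant peaks) and 0 lacked a het peak (up to 19.4%; 41.3% of all).

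Counting peaks at gene starts, a larger share of the peaks in these windows was strong than of the lists as a whole. A -log10 q of 10 or more was reached by 71.4% of the topoisomerase peaks of the WT list, 66.7% of those in het and 68.8% of those in mutant, against 36.7%, 49.7% and 36.7% of all peaks. Summits of 8 peaks in each list were within 1 kb of a gene start, those at Plcg1 and Ppm1f among them. That left 6 of the 14 WT peaks, 7 of the 15 het peaks and 8 of the 16 mutant peaks farther away. Over all peaks, 132436 of 152984 in WT, 89984 of 106974 in het and 151952 of 174407 in mutant were farther away. Windows drawn around genes include their starts by design. The part of peak strength in the sharing was not tested.

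Between WT and mutant the heights of the 12 regions held by both differed by less than 1.5-fold, as those of most regions did. Their median log2 ratio was 0.03, from -0.42 in the last exon of Top2b to 0.30 in its intron 1, and 7 of 12 were higher in mutant. Over all 111314 regions held by WT and mutant the median was 0.07, and 57.2% were higher in mutant. A change of 1.5-fold or more was reached by 0 of 12 regions in either direction, where 7.48% of all regions were higher and 3.61% lower by that much. Every interval of the 12 regions included 0. The WT and mutant summits lay a median of 25.5 bp apart, with a range of 1 to 67 bp. Joining by position already limits this distance, and it was not computed over all regions.

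**Figure D3:**
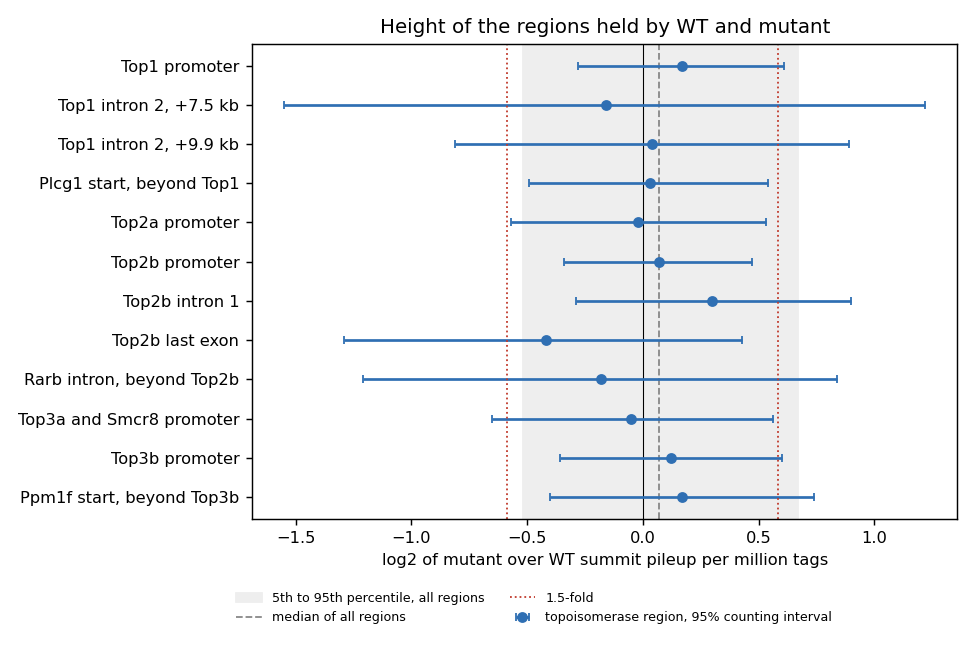
Log2 ratio of mutant over WT scaled summit pileup (horizontal axis) for the 12 regions held by both lists, with 95% counting intervals, the 5th to 95th percentile of all 111314 regions in grey (-0.52 to 0.67), their median as a dashed line and 1.5-fold as dotted lines. All 12 points lie between -0.42 and 0.30, and every interval crosses 0.

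The signs of the smallest promoter ratios depend on the scaling. With the median of all regions set to 0, Top2b was at -0.01, and by fold enrichment it was at -0.08, Top2a at 0.11 and Top3a at 0.03. Top1 and Top3b remained above 0 in both scalings, at 0.09 and 0.13 for Top1 and at 0.04 and 0.04 for Top3b. No direction is therefore given for Top2a, Top2b or Top3a. None is given for Top1 or Top3b either, since their intervals include 0.

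Genes that work with topoisomerases or repair their trapped complexes were examined as a list of 16. They comprise the mitochondrial enzyme gene Top1mt, the meiotic Spo11 and Top6bl (annotated as Gm960), the phosphodiesterases Tdp1 and Tdp2 that release trapped Top1 and Top2, Zfp451, which helps Tdp2, the protease gene Sprtn, Mre11a, the strand break repair genes Parp1, Xrcc1 and Lig3, the Top3a partners Rmi1, Rmi2 and Blm, and the Top3b partners Tdrd3 and Fmr1. A promoter region was in all 3 lists for 15 of the 16, against 61.8% of all 21897 protein-coding genes. Spo11, which makes the breaks of meiosis, had one in the mutant list alone, with 16 tags and a -log10 q of 3.59.

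The promoters of this list differed between WT and mutant by less than 1.5-fold, as nearly all protein-coding promoters did. Of the 15 genes, 12 were higher and 3 lower in mutant (63.3% of all promoters held by WT and mutant were higher), with a median log2 ratio of 0.12 against 0.05 over all promoters held by both, and a range from -0.09 for Rmi1 to 0.51 for Top6bl. None reached 1.5-fold, where 1.38% of all promoters were higher and 0.458% lower by that much. Top6bl had 25 tags in WT, 34 in het and 36 in mutant (interval of the log2 ratio -0.27 to 1.31). Top1mt had 43, 73 and 58 tags, with a log2 ratio of 0.41 (-0.18 to 1.02), and Blm had 67, 111 and 86, with 0.34 (-0.14 to 0.82). All of these intervals include 0. Tdp2 was at 0.06, Tdp1 at 0.09, Tdrd3 at 0.12 and Fmr1 at -0.05.

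Among the chromatin remodeller genes, the Chd7 promoter had 40 tags in WT, 63 in het and 52 in mutant, with a log2 ratio of 0.36 (-0.26 to 0.99). The loss of Chd7 itself was not checked here, since these peaks lie at its promoter. The study reports less Chd7 transcript in het and mutant GNPs by quantitative RT-PCR, and loss of the protein from mutant granule cells by immunostaining. Chd8 was at 0.14 and Smarca4 at -0.08.

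**Figure D4:**
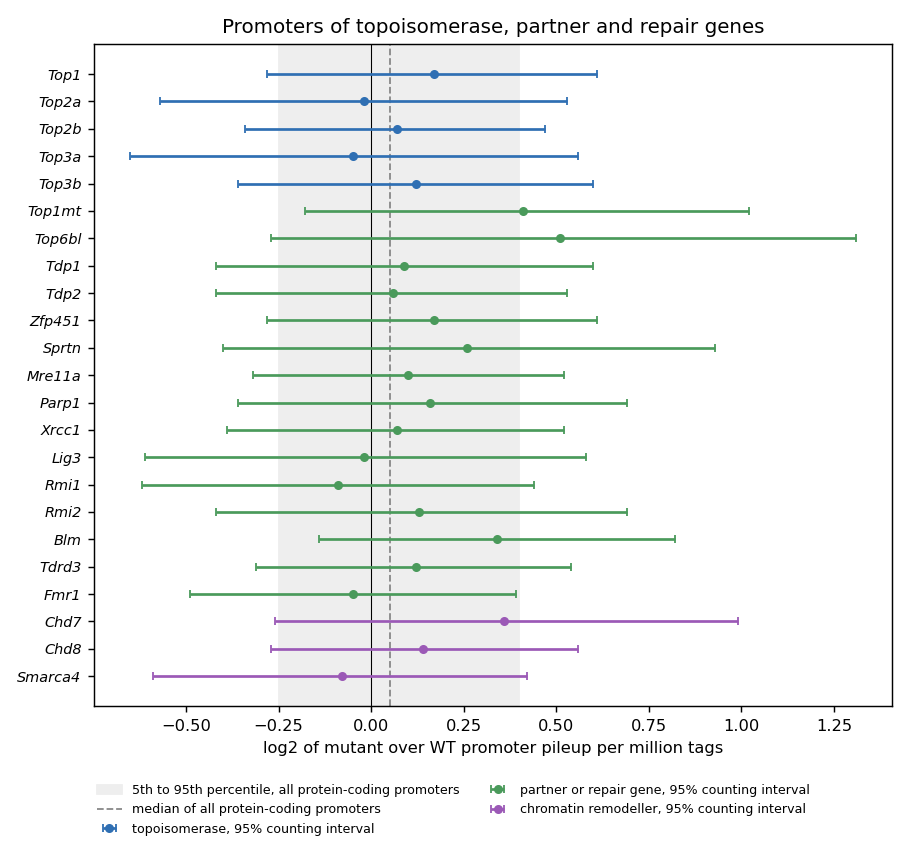
Log2 ratio of mutant over WT scaled promoter pileup (horizontal axis) for the 5 topoisomerase genes, 15 partner and repair genes and 3 remodeller genes, with 95% counting intervals, beside the 5th to 95th percentile of all protein-coding promoters in grey (-0.25 to 0.40) and their median of 0.05 as a dashed line. Top6bl (0.51) and Top1mt (0.41) lie past the grey range, and every interval crosses 0.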

How the data were processed

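ATAC-seq was performed by the authors on GNPs of postnatal day 7 mice, and the study calls the WT and mutant replicates technical. The submitters' processing notes name Trim Galore 0.4.1, Picard 1.139, MACS2 2.1.0.20150731 and the build mm10, with STAR 2.5.0b for WT and mutant and Bowtie 1.0.0 for het. Per the file headers, reads were shifted for het alone. Each peak's deposited signal is its summit pileup in extended tags without depth scaling. The fold enrichment ratio, which includes a pseudocount, the -log10 q values and the positions were also deposited by the authors.

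Scaled pileups, within-list ranks, overlaps and joined regions were computed with python 3.11.15, numpy 2.4.6, pandas 2.3.3, scipy 1.17.1 and matplotlib 3.10.9. Where a region held several peaks of a list, the highest was used. All peaks lay within the 21 chromosomes of GRCm38.p6 as far as these were compared. Shares have Wilson intervals, heights exact Poisson intervals and log2 ratios exact conditional (Clopper-Pearson) intervals. Tags are PCR products and neighbouring peaks are not independent, so these cover counting error only. Regions to name were the 5 promoters, those with the 2 largest rises and falls among regions of -log10 q of 10 or more, and those at neighbouring starts, and the others were described to account for every peak. The genes, lists and motifs were chosen with earlier results of these data known. A gene of the partner and repair list and a cell type marker are not reported here, and counts are over the genes reported. All columns had a group. The overlap, joining and ratio steps were tested on simulated peaks.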

Additional observations from a re-analysis of the deposited data

How the results depend on the processing

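Over 16 results 44 alternatives were computed, and 5 of them moved the value. A share or log2 ratio counted as moved outside its counting interval, a median by more than the SD over regions, a count by over 1.5-fold, and a rank change, which is in other units, by its sign alone. The mutant share without a WT peak went from 6.25% to 0 with peaks of -log10 q of 5 or more and to 0 with gene bodies alone, since either leaves out the faint Rarb intron peak. As a change in within-list rank in place of a log2 ratio, the promoters of Top2a (0.494 points), Top2b (-0.0312) and Top3a (0.140) had the sign opposite to that of their pileup ratio. The rank is another quantity than the ratio, and the cause was not tested. With 50% reciprocal overlap, 7.14% of WT and 18.8% of mutant peaks lacked a partner. Joining overlapping peaks alone gave 15 regions, 14 of them in all lists. Pairing each WT peak with its strongest mutant peak, chosen after seeing the data, left the median log2 ratio at 0.03. No paired analysis was possible because each genotype is represented by 1 list with no columns for single libraries, and for the same reason no library could be left out in turn. With 10 to 106 tags at the summits compared, the depth separated no region between WT and mutant.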
